A study of Mus musculus with 42 samples.

Results

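The question addressed was which RNAs changed differently in proximal tubule ribosomes than in the whole kidney after 5 days of ureteral obstruction. The quantity measured was an interaction of fraction and state: the log2 change at day 5 in the proximal tubule fraction (PT) minus the log2 change at day 5 in total kidney RNA (Total), with the sexes weighted equally. A positive interaction means that the ratio of PT over Total was higher at day 5 than in the control kidneys, whether or not the gene rose. It was formed from 28 of the 42 RNA-seq libraries of the series, chosen by their labels: PT at day 5 of obstruction (D5UUO), PT of contralateral kidneys (CLK), Total at day 5 and Total of contralateral kidneys, each with 4 male and 3 female libraries. The mice were 12 weeks old and the tissue was renal cortex. CLK is the unobstructed kidney, labelled as a healthy control, and the day on which it was taken is not given. The PT fraction was the RNA bound to beads coated with anti-GFP antibodies, in both states. The strain, the tagged gene and the promoter that drives the tag are not given in the sources used here, nor is it said whether Total is the unbound fraction. The labels do not say that the libraries of a group came from separate animals, so p-values measure the spread between these libraries.

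Translating ribosome affinity purification (TRAP) pulls down ribosomes that carry a GFP tag in 1 cell type, and with them the RNA those ribosomes hold. The proximal tubule reabsorbs most of the filtered sodium, glucose, phosphate, amino acids and protein, and burns fatty acids to do so. Obstruction of the ureter injures the tubule, which loses transport and metabolic transcripts and gains injury, adhesion and inflammatory ones, while leukocytes and fibroblasts gather in the interstitium. Total RNA therefore holds the tubule's own change together with that of every other cell. In such bulk samples fewer cells of a type and less RNA per cell cannot be told apart.

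Of 16574 genes tested, 614 had a positive interaction (3.7% of all tested) and 199 a negative one (1.2%), together 4.91%, at an adjusted p under 0.05 and at least a 2-fold difference in edgeR's quasi-likelihood test. The genes with a positive interaction included tubule injury genes (Sox9, Runx1, Anxa2, Havcr1 and Vcam1), NF-kB pathway genes (Traf1, Cd40 and Relb) and immediate early genes (Klf4, Ier3 and Egr1). Those with a negative interaction included both subunit genes of the nitric oxide receptor guanylate cyclase (Gucy1a3 and Gucy1b3), collagen genes (Col8a1 and Col12a1), and Lcn2 and Krt19, which are commonly read as tubule injury genes. None of the 32 proximal tubule solute carrier genes or the 32 fatty acid oxidation genes described below was called. With 4.91% of all genes tested called, lists of this size would hold few calls, so the 0 says little about them. Other solute carrier genes were called, among them Slc44a3 and Slc7a2. Without a threshold on fold or adjustment, 3062 genes had a p under 0.05. The median interaction over all genes was 0.16 on the log2 scale, and it was 0.02 with RLE size factors in place of TMM factors, so single values are to be read against a shift of that size.

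Among the 12 largest positive interactions, 4 genes held a match to the kappa-B consensus, the motif bound by NF-kB factors, within their annotated promoters. Their promoters are shown so that the place of each match can be seen. The promoter of Traf1, an NF-kB pathway gene that is also among the 12, held no such match. Capitals mark a match on either strand, the sequences are the 250 bases before the annotated start in RefSeq (GRCm38.p6), and they are written 5′ to 3′ on the strand of the gene.
Steap4 promoter, chr5:7960222-7960471 (plus strand): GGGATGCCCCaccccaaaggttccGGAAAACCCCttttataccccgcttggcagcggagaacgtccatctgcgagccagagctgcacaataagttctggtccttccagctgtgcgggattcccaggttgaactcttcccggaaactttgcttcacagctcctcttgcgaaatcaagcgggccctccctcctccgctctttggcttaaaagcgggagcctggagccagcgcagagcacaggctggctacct
Rasd2 promoter, chr8:75213694-75213943 (plus strand): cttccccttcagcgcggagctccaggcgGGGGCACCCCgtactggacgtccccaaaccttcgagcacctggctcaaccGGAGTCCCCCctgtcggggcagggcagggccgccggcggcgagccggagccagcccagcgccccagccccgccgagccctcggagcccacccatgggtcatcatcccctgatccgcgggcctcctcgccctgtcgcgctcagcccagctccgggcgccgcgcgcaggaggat
Cpne8 promoter, chr15:90679389-90679638 (minus strand): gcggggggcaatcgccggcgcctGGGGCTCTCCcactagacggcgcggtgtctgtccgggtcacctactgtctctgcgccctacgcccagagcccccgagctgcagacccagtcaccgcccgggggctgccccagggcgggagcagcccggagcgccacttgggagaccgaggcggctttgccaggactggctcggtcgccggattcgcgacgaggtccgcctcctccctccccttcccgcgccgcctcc
Padi2 promoter, chr4:140906110-140906359 (plus strand): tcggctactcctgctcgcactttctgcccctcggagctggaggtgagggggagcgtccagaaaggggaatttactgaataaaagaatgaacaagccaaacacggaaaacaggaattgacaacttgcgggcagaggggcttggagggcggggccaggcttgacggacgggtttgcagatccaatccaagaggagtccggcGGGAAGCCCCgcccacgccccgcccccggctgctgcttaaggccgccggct
RefSeq held a promoter for 11 of the 12 genes with the largest positive interaction and for 9 of the 12 with the largest negative one, and each was searched on both strands from 250 bases before to 50 bases after the start. The kappa-B consensus matched in 4 of the 11 and in 1 of the 9 (Gm11513), and in 4.51% of all 32851 RefSeq promoters. The TEAD motif GGAATG matched in 2 of the 11 and 4 of the 9, against 14.7% of all promoters. The AP-1 motif TGANTCA matched in 0 of the 11 and 1 of the 9, against 7.81%, and the CArG box in none of either, against 1.63%. A gene counts as matched if any of its annotated promoters matched, and some have several, while the shares are per promoter, so the counts and shares are not on the same base. A match says only that these letters stand in this window.

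The fractions were checked against their labels before the interaction was read. The 32 solute carrier genes of the proximal tubule had a median log2 ratio of PT over Total of 1.06 at day 5 and 0.63 in contralateral kidneys. The 20 fibroblast markers had a median ratio of -4.17 at day 5 and -3.85 in contralateral kidneys, and the 22 macrophage markers -4.28 and -3.70 in the same order. None of these markers was at 0 in all 7 PT libraries of a state, and the macrophage markers summed to between 138 and 221 CPM (counts scaled to library size) in PT at day 5, against 13.2 to 21 CPM in contralateral PT, and to between 1230 and 2050 CPM in Total at day 5, against 108 to 244 CPM in contralateral Total. These sums were lower in PT than in Total in both states and higher at day 5 in both fractions, and their part in single interactions was not tested. Total counts per library ran from 10195584 to 28083403. The level of Lars2, a mitochondrial leucyl-tRNA synthetase gene, varied widely between libraries of 1 group, from 2810 to 27800 CPM in PT at day 5, 3180 to 19000 CPM in contralateral PT, 1790 to 9470 CPM in Total at day 5 and 4670 to 17100 CPM in contralateral Total. An alternative fit left out the 8 libraries of lowest Lars2, of which 6 were PT and 2 Total. It kept replicate 3 alone in female PT at day 5, the library with 27800 CPM of Lars2. That group then has no spread of its own, so only sizes of the interaction are given from that fit.

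The 2 directions differed in what the fractions did. Of the 614 genes with a positive interaction, 343 (55.9%) rose in both fractions and rose more in PT, and 206 (33.6%) rose in PT without a call in Total. Another 34 fell in Total without a call in PT, 23 were called in neither fraction, 5 fell in both and fell more in Total, and 3 rose in PT and fell in Total. Of the 199 genes with a negative interaction, 71 (35.7%) rose in Total without a call in PT, 50 (25.1%) fell in PT without a call in Total, and 28 rose in both and rose more in Total. A further 26 were called in neither, 14 fell in PT and rose in Total, and 10 fell in both and fell more in PT. Over all genes tested, 19.8% rose and 10.6% fell in PT, and 18.9% rose and 13.3% fell in Total.

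**Figure D1:**
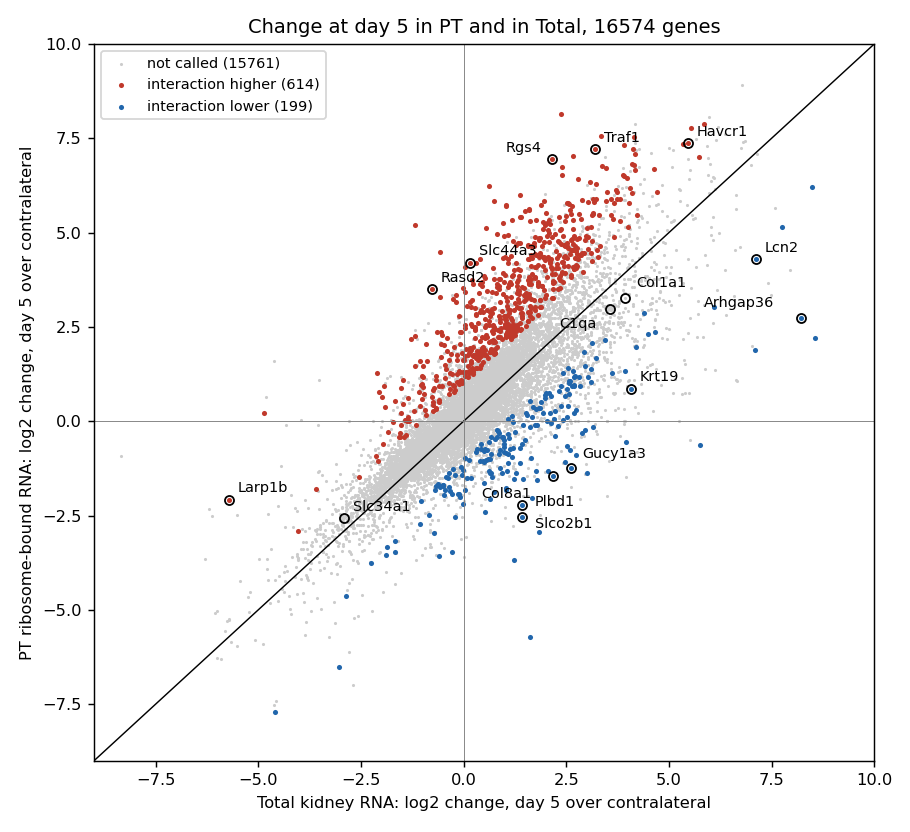
Log2 change at day 5 over contralateral in PT (vertical axis) against the same in Total (horizontal axis), 1 point per gene for 16574 genes, with the diagonal drawn as a line. The 614 genes with a positive interaction (red) lie above the diagonal and mostly to the upper right, and the 199 with a negative one (blue) lie below it; a circle marks each labelled gene.

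The median ratio of the genes with a positive interaction started low and moved toward balance. Their median log2 ratio of PT over Total was -0.48 at day 5, against -2.68 in contralateral kidneys. In contralateral kidneys 538 of the 614 were called lower in PT than in Total and 0 were called higher (22.5% and 1.46% of all genes tested). At day 5, 208 were still called lower in PT (22% of all genes tested), 43 were called higher (5.74% of all genes tested) and 363 were not called. Their median log2 change was 3.28 in PT and 1.17 in Total. In contralateral PT, 355 of the 614 (57.8%) averaged under 1 CPM, against 28.3% of all genes tested. The starting ratio enters the interaction, so these values describe the called genes and are not a separate result.

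On other scales the split between directions differed. In CPM, the rise in PT exceeded the rise in Total for 414 of the 614 genes and fell short of it for the other 200, against 8533 and 8041 of all 16574 genes tested. With limma on log2(RPKM + 1), where the added 1 shrinks ratios of low genes, 145 genes were called higher and 621 lower, and 18.9% of calls were higher, against 75.5% in the count model. Of the 614, 103 were called higher on that scale. DESeq2 and limma-voom, both on the counts, each gave 63.9% of calls as higher.

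The genes with a negative interaction had a median ratio closer to balance in contralateral kidneys than at day 5. Their median log2 ratio of PT over Total was -2.57 at day 5, against -0.51 in contralateral kidneys. At day 5, 174 of the 199 were called lower in PT than in Total and 0 higher (22% and 5.74% of all genes tested). In contralateral kidneys 65 were called lower and 9 higher (22.5% and 1.46% of all genes tested). The ratio in each state enters the interaction, so these values describe the called genes and are not a separate result. Their median log2 change was -0.70 in PT and 1.24 in Total. In CPM, Total gained more than PT, or lost less, for 194 of the 199, against 8041 of all 16574 genes tested.

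Traf1, an adaptor of tumour necrosis factor receptors, ranged over 40.4, 50.3 and 61.7 CPM (lowest, median and highest library) in PT at day 5, against 0.119, 0.282 and 0.888 CPM in contralateral PT. In Total it ranged over 22.7, 25.1 and 35.9 CPM at day 5, against 1.88, 2.81 and 3.68 CPM in contralateral kidneys. Every PT library was above every Total library at day 5, and every PT library was below every Total library in contralateral kidneys, so the order of the fractions turned over. The log2 change was 7.21 in PT and 3.21 in Total, and the interaction was 4.01 ± 0.31 (standard error; adjusted p = 3.17e-10), with 3.54 in males and 4.47 in females.

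Rasd2, which encodes a Ras-like small GTPase, rose in PT without a call in Total. It ranged over 3.71, 5.47 and 7.28 CPM in PT at day 5, against 0.261, 0.445 and 0.985 CPM in contralateral PT, and over 1.74, 2.55 and 3.96 CPM in Total at day 5, against 2.87, 4.96 and 6.9 CPM in contralateral Total. The PT libraries of the states did not overlap, while those of Total did, and the fractions were apart in contralateral kidneys but overlapped at day 5. The interaction was 4.27 ± 0.35 (adjusted p = 1.36e-09), with a log2 change of 3.50 in PT and of -0.78 in Total, which had an adjusted p of 0.00408 but was under 2-fold. Slc44a3, a choline transporter-like gene, ranged over 7.76, 20.9 and 27.7 CPM in PT at day 5, against 0.481, 1.05 and 1.59 CPM in contralateral PT, and over 9.19, 14.7 and 16.9 CPM in Total at day 5, against 8.4, 11.6 and 22.6 CPM in contralateral Total. Its PT libraries were apart and its Total libraries overlapped almost fully. The interaction was 4.05 ± 0.34 (adjusted p = 1.63e-09).

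Other large positive interactions were those of Rgs4, Mapk11, Cpne8 and Pik3r5. Rgs4, a regulator of G-protein signalling, ranged over 4.19, 12.7 and 41.5 CPM in PT at day 5, against 0, 0.141 and 0.238 CPM in contralateral PT, and over 5.51, 11.6 and 18.9 CPM in Total at day 5, against 1.15, 2.41 and 5.08 CPM in contralateral Total. The fractions overlapped at day 5 but not in contralateral kidneys, and the interaction was 4.80 ± 0.59 (adjusted p = 2.21e-06). Mapk11, the gene of p38 beta, ranged over 9.57, 12 and 14.1 CPM in PT at day 5, against 0, 0.0961 and 0.318 CPM in contralateral PT, and over 6.39, 7.87 and 10.3 CPM in Total at day 5, against 0.837, 1.35 and 2.36 CPM in contralateral Total. Again the states did not overlap within either fraction, and the interaction was 4.15 ± 0.41 (adjusted p = 4.6e-08). Cpne8, a calcium-dependent phospholipid-binding copine gene (3.53 ± 0.29, adjusted p = 9.64e-10), rose in both fractions as well. Pik3r5, a regulatory subunit gene of phosphoinositide 3-kinase gamma, had an interaction of 4.20 ± 0.75 (adjusted p = 0.000434), with a median of 4.12 CPM in PT at day 5, against 0 CPM in contralateral PT, and its interaction was 1.80 in males and 6.61 in females.

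Steap4, a metalloreductase gene, had 471 counts over the 7 PT libraries at day 5, against 1 count in contralateral PT. The ratio was 439, with a 95% counting interval of 78.5 to 17400 that covers counting error only. Its medians were 3.79 CPM in PT at day 5 and 0 CPM in contralateral PT, and 3.33 CPM in Total at day 5 and 0.713 CPM in contralateral Total, and its interaction was called higher (adjusted p = 1.62e-05). Aldh1l2, a mitochondrial folate enzyme gene (3.55 ± 0.50, adjusted p = 1.23e-05), and Padi2, a peptidylarginine deiminase gene (3.52 ± 0.55, adjusted p = 7.19e-05), rose in PT and were not called in Total. Larp1b, a La-related RNA-binding protein gene, was the exception among the 12, since it fell in both fractions. It ranged over 0, 0.301 and 0.366 CPM in PT at day 5, against 0.385, 0.731 and 1.44 CPM in contralateral PT, and over 0.156, 0.248 and 0.611 CPM in Total at day 5, against 9.67, 14.1 and 21.7 CPM in contralateral Total. The interaction of Larp1b was 3.63 ± 0.62 (adjusted p = 0.000201), and it was -0.26 without the 8 libraries of lowest Lars2.

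**Figure D2:**
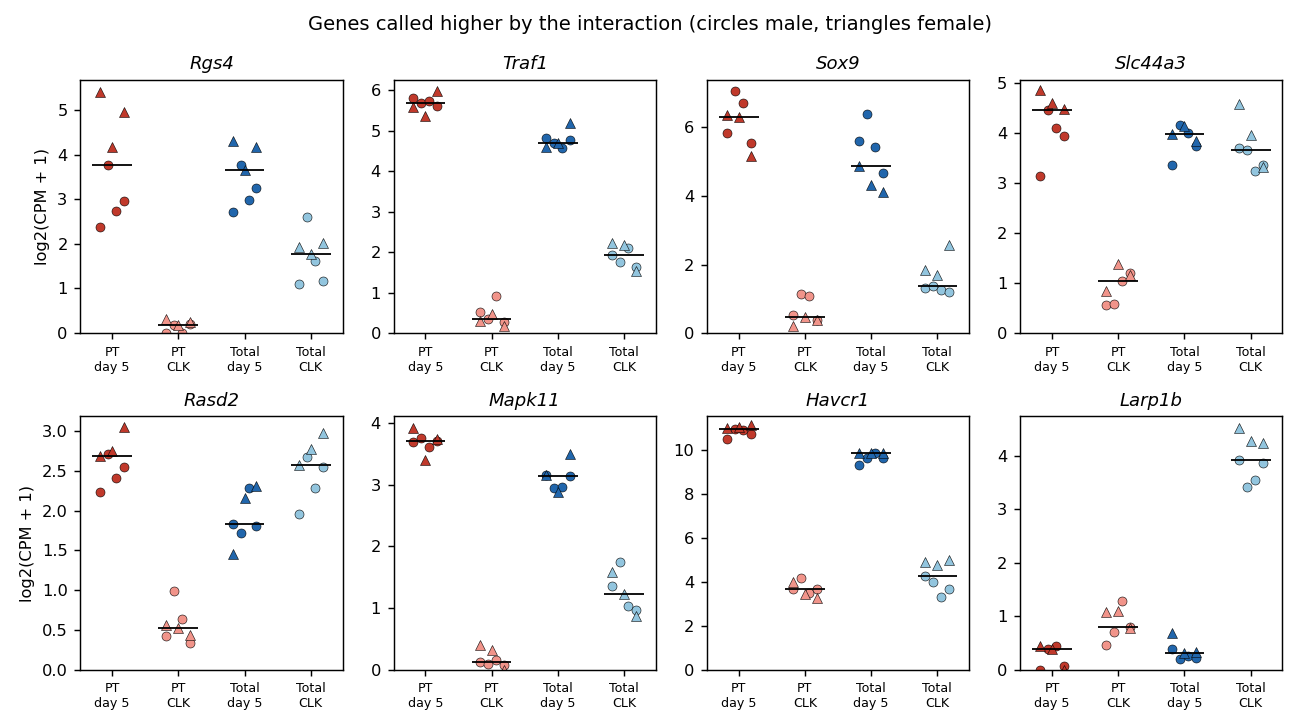
Level of 8 genes with a positive interaction as log2(CPM + 1) in every library, by fraction and state (D5UUO shown as day 5, CLK contralateral), with circles for males, triangles for females and a bar at the median of the 7 libraries. In Traf1 every PT library is above every Total library at day 5 and below every one in contralateral kidneys, and Larp1b shows the fall in Total.

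The genes with the largest negative interactions contained a set that moved in opposite directions. Gucy1a3 and Gucy1b3 encode the alpha and beta subunits of the soluble guanylate cyclase that responds to nitric oxide. Gucy1a3 ranged over 2.76, 4.2 and 6.12 CPM in PT at day 5, against 4.29, 9.29 and 14.4 CPM in contralateral PT, and over 83.4, 122 and 133 CPM in Total at day 5, against 16, 17.5 and 23.2 CPM in contralateral Total. The PT libraries of the states overlapped and those of Total did not. The log2 change was -1.25 in PT and 2.63 in Total, both past the test, and the interaction was -3.88 ± 0.28 (adjusted p = 1.49e-10), with -3.94 in males and -3.82 in females. Gucy1b3 ranged over 0.333, 0.523 and 1.09 CPM in PT at day 5, against 1.2, 1.89 and 5.75 CPM in contralateral PT, and over 8.36, 11.7 and 13.2 CPM in Total at day 5, against 2.24, 3.43 and 5.23 CPM in contralateral Total. Its states were apart in both fractions, and the interaction was -3.72 ± 0.37 (adjusted p = 4.83e-08).

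Slco2b1, an organic anion transporter gene, ranged over 0.481, 0.75 and 1.09 CPM in PT at day 5, against 2.22, 3.85 and 7.06 CPM in contralateral PT, and over 14.8, 17.4 and 21.9 CPM in Total at day 5, against 4, 6.29 and 8.59 CPM in contralateral Total. The states were apart in both fractions, in opposite directions, and the interaction was -3.97 ± 0.29 (adjusted p = 1.54e-10). Plbd1, which encodes a phospholipase B-like protein, followed with a log2 change of -2.21 in PT and 1.42 in Total (interaction -3.63 ± 0.25, adjusted p = 6.57e-11). Col8a1, a chain of type VIII collagen, changed by -1.45 in PT and 2.18 in Total (interaction -3.63 ± 0.26, adjusted p = 1.49e-10). In contralateral kidneys the fractions of Plbd1 and Col8a1 had overlapped, with log2 ratios of PT over Total of 0.25 and 0.40 that did not pass the test. Pstpip1, a cytoskeletal adaptor gene of blood cells, also fell in PT and rose in Total (-3.38 ± 0.39, adjusted p = 5.45e-07).

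Most other large negative interactions were carried by Total alone or by a larger rise there. Gm11513, a noncoding RNA among the 12 largest, was an exception, with a log2 change of -7.70 in PT and -4.58 in Total. Arhgap36, a gene of a GTPase-activating protein family, ranged over 0.904, 1.44 and 1.88 CPM in PT at day 5, against 0.104, 0.192 and 0.397 CPM in contralateral PT, and over 23, 31.7 and 54.2 CPM in Total at day 5, against 0, 0.105 and 0.235 CPM in contralateral Total. It rose in both fractions, and the interaction was -5.49 ± 0.53 (adjusted p = 3.09e-08). Ear2, an eosinophil-associated ribonuclease gene, had 982 counts in Total at day 5, against 2 in contralateral Total, a ratio of 386 with a 95% counting interval of 107 to 3190, while its PT median was 0.226 CPM at day 5, against 0.0635 CPM in contralateral PT. Ear2 belongs to a family of near-identical genes whose reads may be shared, so its level is uncertain. Col12a1, a fibril-associated collagen gene (-3.16 ± 0.27, adjusted p = 2.09e-09), and Slc7a2, a cationic amino acid transporter gene (-3.20 ± 0.63, adjusted p = 0.00147), rose in Total and were not called in PT.

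**Figure D3:**
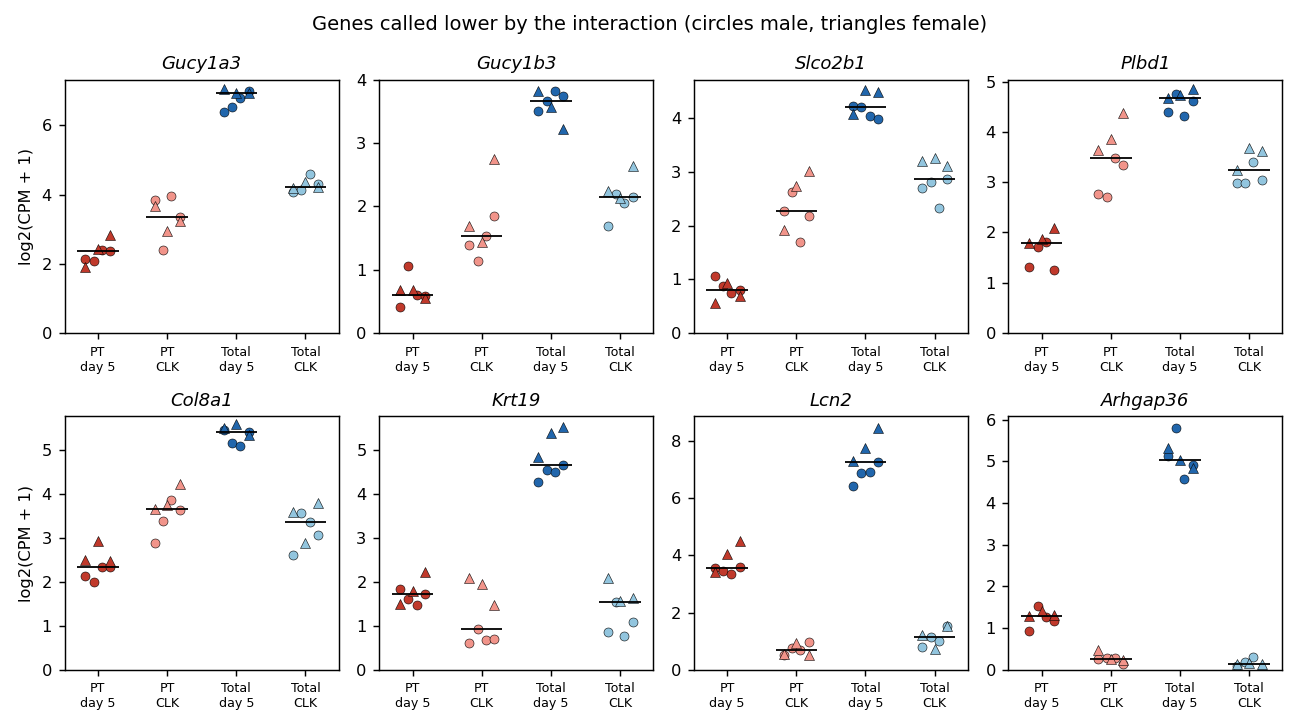
Level of 8 genes with a negative interaction as log2(CPM + 1) in every library, by fraction and state (D5UUO shown as day 5, CLK contralateral), with circles for males, triangles for females and a bar at the median of the 7 libraries. For Slco2b1 and Gucy1b3 day 5 is below contralateral in PT and above it in Total.

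The tubule injury and repair genes were the list with the most calls, and they split. Of 35 tested members, 13 had a positive and 3 a negative interaction (3.7% and 1.2% of all genes tested), with a median of 0.81 against 0.16 over all genes. Of the 35, 28 rose in PT and 28 in Total. Havcr1, which encodes kidney injury molecule 1, ranged over 1430, 2000 and 2250 CPM in PT at day 5, against 8.48, 11.6 and 17.1 CPM in contralateral PT, and over 647, 922 and 943 CPM in Total at day 5, against 8.87, 18 and 30.5 CPM in contralateral Total. PT was above Total in every library at day 5, while the fractions overlapped in contralateral kidneys. Its interaction was 1.91 ± 0.22 (adjusted p = 4.59e-07). Vcam1, a vascular adhesion molecule gene also used as a mark of unrepaired tubule cells, ranged over 518, 653 and 791 CPM in PT at day 5, against 1.68, 2.86 and 4.61 CPM in contralateral PT, and over 199, 253 and 305 CPM in Total at day 5, against 3.71, 4 and 11.9 CPM in contralateral Total (interaction 2.23 ± 0.29, adjusted p = 4.39e-06).

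The transcription factor genes Sox9 and Runx1 and the annexin gene Anxa2 had the largest positive interactions of that list. Sox9, a factor of tubule regeneration, ranged over 34.8, 77.7 and 132 CPM in PT at day 5, against 0.159, 0.381 and 1.2 CPM in contralateral PT, and over 16.5, 28.3 and 82.3 CPM in Total at day 5, against 1.29, 1.6 and 4.92 CPM in contralateral Total. The states were apart in both fractions, and the interaction was 3.40 ± 0.50 (adjusted p = 4.88e-05). It was 1.76 in males and 5.03 in females, a sex difference that was not called. Runx1 had an interaction of 3.39 ± 0.37 (adjusted p = 2.77e-07) and Anxa2 of 2.62 ± 0.23 (adjusted p = 4.95e-09). Cdh6, Anxa3, Sox4, Cd44, Vim, Cd24a, S100a11 and Spp1 were the other members called higher. Spp1, the osteopontin gene, reached 34300 to 92300 CPM in PT at day 5, against 451 to 5360 CPM in contralateral PT. In Total it reached 14600 to 39100 CPM at day 5, against 732 to 3910 CPM in contralateral kidneys. The interaction of Spp1 was 1.15 ± 0.29 (adjusted p = 0.0119), and 1.07 without the 8 libraries of lowest Lars2.

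Lcn2, Krt19 and Anxa1 went the other way. Lcn2 encodes the lipocalin known as a urinary marker of kidney injury and ranged over 9.09, 10.9 and 21.8 CPM in PT at day 5, against 0.415, 0.611 and 0.94 CPM in contralateral PT, and over 85, 154 and 350 CPM in Total at day 5, against 0.647, 1.2 and 1.88 CPM in contralateral Total. Every Total library was above every PT library at day 5, although both fractions rose. The interaction of Lcn2 was -2.81 ± 0.39 (adjusted p = 1.04e-05). Krt19, a simple-epithelium keratin gene, ranged over 1.78, 2.3 and 3.72 CPM in PT at day 5, against 0.529, 0.915 and 3.26 CPM in contralateral PT, and over 18.3, 24.3 and 45.1 CPM in Total at day 5, against 0.705, 1.92 and 3.29 CPM in contralateral Total. It rose in Total and was not called in PT, with an interaction of -3.21 ± 0.31 (adjusted p = 3.06e-08). Anxa1, an annexin gene, had -1.30 ± 0.28 (adjusted p = 0.00303), and -1.20 without the 8 libraries of lowest Lars2. Krt20, another injury keratin gene, had an interaction of 0.81 ± 0.54 that did not pass the test (adjusted p = 0.471), and Cdkn1a, a cell cycle inhibitor gene, had 0.13 ± 0.42 (adjusted p = 0.935).

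Most transport genes of the proximal tubule fell in both fractions, and the interaction called almost none of them. Among 32 solute carrier genes 26 fell in PT and 27 in Total, and 0 were called by the interaction in either direction. As 4.91% of all genes tested were called, a list of this size would hold few calls. The median interaction was 0.35, with 30 of the 32 above 0, against 0.16 and 11142 of 16574 for all genes tested. Slc34a1, the sodium-phosphate cotransporter gene, ranged over 437, 641 and 825 CPM in PT at day 5, against 3140, 3830 and 4250 CPM in contralateral PT, and over 167, 250 and 335 CPM in Total at day 5, against 1600, 1870 and 2280 CPM in contralateral Total. The states were apart in both fractions, PT was above Total in both states, and the interaction was 0.35 ± 0.23 (adjusted p = 0.45). Slc22a6, an organic anion transporter gene (0.52 ± 0.31, adjusted p = 0.392), and Lrp2, the megalin gene of protein uptake (0.65 ± 0.24, adjusted p = 0.114), also did not pass. Slc5a2, the glucose transporter gene, had 0.17 ± 0.23 (adjusted p = 0.774), and -0.06 without female contralateral PT replicate 1.

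Other groups of tubule genes gave 0 or 1 call each by the interaction, and not all of their members fell. With 4.91% of all genes tested called, lists of these sizes would hold few calls, so these counts say little about them. Of 32 fatty acid oxidation genes 19 fell in PT and 27 in Total, and 0 were called by the interaction (median 0.25). Of 19 endocytosis and brush border genes 10 fell in PT and 11 in Total, and 0 were called by the interaction (median 0.10). Of 36 nuclear genes of the respiratory chain 21 fell in PT and 28 in Total, and 0 were called by the interaction (median 0.22). Of 24 gluconeogenesis and metabolism genes 20 fell in PT and 21 in Total, and 1 was called by the interaction, Kap, the androgen-regulated gene of the tubule, with 1.35 ± 0.35 (adjusted p = 0.0144). Kap had an interaction of 0.34 in males and 2.37 in females, a sex difference that was not called, and its adjusted p was 0.0514 without female contralateral PT replicate 1. Of 18 tubule transcription factor genes 5 fell in PT and 10 in Total, and 1 was called by the interaction, Emx1 (1.04 ± 0.21, adjusted p = 0.0014). Emx1 fell in Total, and its log2 change of -0.41 in PT had an adjusted p of 0.0212 but was under 2-fold. Emx1 went below the 2-fold limit without 1 of 6 libraries in turn (0.87 to 0.99), and with RLE size factors. With RLE size factors the solute carrier median was 0.21, the fatty acid oxidation median 0.11 and the endocytosis median -0.04.

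NF-kB pathway genes were called in 1 direction. Of 22 members 6 had a positive interaction and 0 a negative one (3.7% and 1.2% of all genes tested). The 6 were Traf1, Cd40, Relb, Birc3, Tnfaip2 and Nfkbiz. The list median was 0.74 and 20 of 22 lay above 0, against 11142 of 16574 for all genes tested. Cd40, a costimulatory receptor gene, ranged over 3.12, 5.62 and 8.36 CPM in PT at day 5, against 0.0481, 0.157 and 0.422 CPM in contralateral PT, and over 5.68, 6.34 and 8.37 CPM in Total at day 5, against 0.402, 1.52 and 1.7 CPM in contralateral Total. The fractions overlapped at day 5, and the interaction was 2.73 ± 0.43 (adjusted p = 7.04e-05). Relb, a subunit gene of the noncanonical NF-kB pathway, had 1.66 ± 0.25 (adjusted p = 4.5e-05), with 33.3 to 40.8 CPM in PT at day 5, above all Total libraries of that day (18.6 to 30.1 CPM).

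Immediate early and AP-1 genes gave 8 positive and 0 negative calls among 22 members (3.7% and 1.2% of all genes tested). The list median was 0.68. The 8 were Klf4, Ier3, Egr1, Klf2, Maff, Btg2, Fos and Ier5, all genes that respond fast to growth factors or stress. Egr1 ranged over 29.9, 48.9 and 107 CPM in PT at day 5, against 0.254, 0.418 and 1.27 CPM in contralateral PT, and over 38.8, 50.8 and 72.5 CPM in Total at day 5, against 2.35, 3.77 and 4.18 CPM in contralateral Total. The fractions overlapped at day 5 and were apart in contralateral kidneys, and the interaction was 2.59 ± 0.34 (adjusted p = 4.76e-06). Ier3 ranged over 36.6, 60.5 and 65.9 CPM in PT at day 5, against 4.69, 5.75 and 11.9 CPM in contralateral PT, and over 55, 72.7 and 119 CPM in Total at day 5, against 37.4, 69.3 and 129 CPM in contralateral Total. It rose in PT and was not called in Total (interaction 2.95 ± 0.29, adjusted p = 5.24e-08). Klf4 had 3.35 ± 0.31 (adjusted p = 1.87e-08). With RLE size factors the counts were 8 and 1. Without the 8 libraries of lowest Lars2 the median interaction of this list was 0.825, against 0.17 over all genes. In that fit it was 0.687 for the NF-kB list and 0.904 for the injury list.

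Lists of stress genes each gave 3 positive calls, fewer than the 8 of the immediate early list. Over all genes tested 3.7% were called higher and 1.2% lower. Of 22 heat shock and antioxidant genes 3 were called higher and 0 lower (median 0.36), the heat shock genes Hspa1b (3.54 ± 0.53, adjusted p = 3.5e-05), Hspb1 (2.48 ± 0.51, adjusted p = 0.00209) and Hspa1a (2.43 ± 0.44, adjusted p = 0.000409). Hspa1a and Hspa1b are near-identical copies, so reads may be shared between them. Of 27 ATF4 target and unfolded protein genes 3 were called higher (median 0.08): Slc7a5, an amino acid transporter gene, Asns, the asparagine synthetase gene (1.27 ± 0.23, adjusted p = 0.000482), and Mthfd2, a mitochondrial folate enzyme gene. Slc7a5 had 2.35 ± 0.65 (adjusted p = 0.0244, and 0.0943 without female contralateral PT replicate 1), and Mthfd2 lost its call without 1 of 4 libraries in turn (0.95 to 1.01). Of 21 p53 target genes 3 were called higher (median 0.13), Gadd45b (1.95 ± 0.42, adjusted p = 0.00319), Btg2 (1.72 ± 0.27, adjusted p = 6.9e-05) and Fas, which lost its call without 1 of 3 libraries in turn (0.85 to 0.99). The medians of the ATF4 and p53 lists were -0.06 and -0.01 with RLE size factors.

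Cell cycle genes gave 1 call by the interaction. Of 31 members 0 were called higher and 1 lower (3.7% and 1.2% of all genes tested). The median was -0.64, against 0.16 over all genes, and 3 of the 31 lay above 0, against 11142 of 16574. In PT 2 of the 31 rose, and in Total 10. The called gene was E2f1, a transcription factor gene of the G1 to S transition (-1.22 ± 0.35, adjusted p = 0.0289), which lost its call without 1 of 6 libraries in turn (-1.16 to -0.95). Summed over the list, the level was 207 to 238 CPM in PT at day 5, against 114 to 279 CPM in contralateral PT, and 386 to 487 CPM in Total at day 5, against 160 to 423 CPM in contralateral Total.

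**Figure D4:**
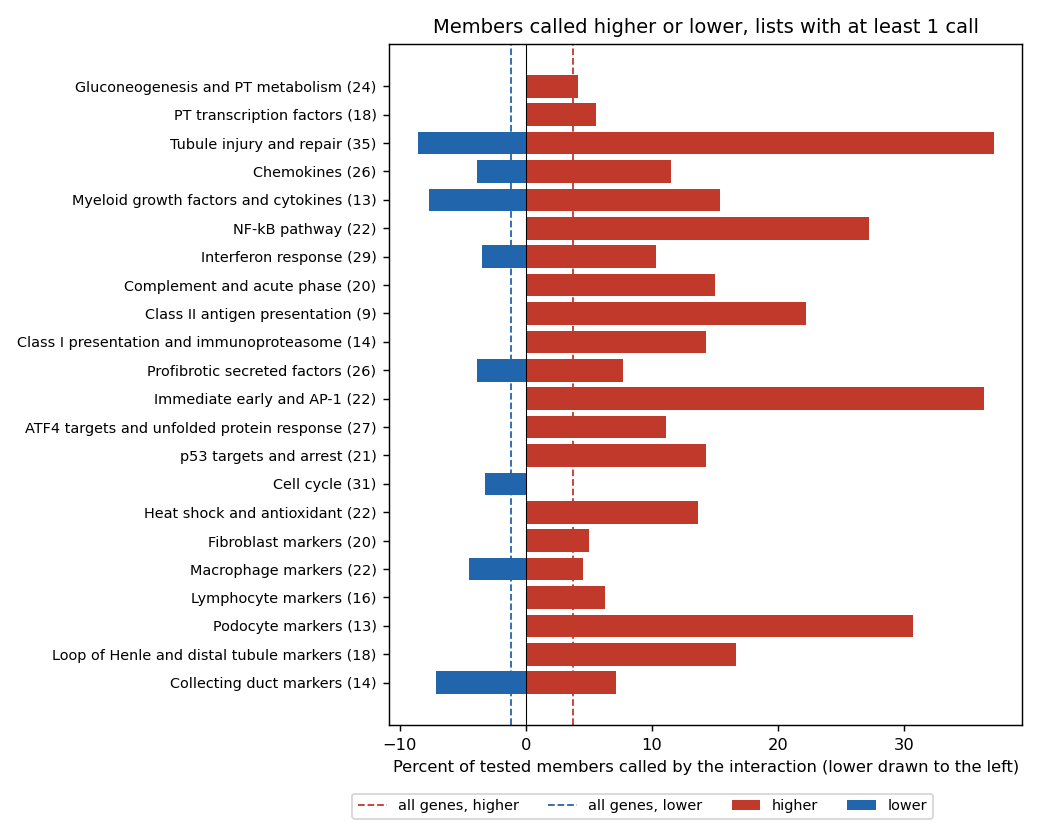
Percent of the tested members of each gene list called higher (right) or lower (left) by the interaction, with the number tested in brackets, for the lists with at least 1 call, and dashed lines at 3.7% and 1.2% for all genes. Tubule injury, immediate early and podocyte genes have the longest bars to the right, and cell cycle has only a bar to the left.

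Most inflammatory ligand genes rose in both fractions, and most were not called by the interaction. Of 26 chemokine genes 21 rose in PT and 22 in Total. By the interaction 3 were called higher and 1 lower (3.7% and 1.2% of all genes tested), with a median of 0.21. Without the 8 libraries of lowest Lars2 the median was 0.321. Ccl2, the monocyte chemoattractant gene, ranged over 36, 63.2 and 91.7 CPM in PT at day 5, against 0.366, 0.722 and 3.1 CPM in contralateral PT, and over 27.2, 34.4 and 69.3 CPM in Total at day 5, against 0.632, 1.76 and 2.51 CPM in contralateral Total. The fractions overlapped in both states. The interaction was 1.36 ± 0.37 (adjusted p = 0.019), and 1.32 without the 8 libraries of lowest Lars2. Ccl9, a chemokine of myeloid cells, had 1.97 ± 0.45 (adjusted p = 0.00532), yet its median was 11.5 CPM in PT and 44.9 CPM in Total at day 5. Ccl9 was one of the genes whose sign turned with limma on log2(RPKM + 1), to -1.13 (adjusted p = 3.06e-05). Ccl5 (1.24 ± 0.38, adjusted p = 0.044) lost its call without 1 of 19 libraries in turn (0.96 to 1.28). Cx3cl1, a membrane-bound chemokine gene, was lower (-1.14 ± 0.17, adjusted p = 4.27e-05), and Cxcl1, a neutrophil chemoattractant gene, was not called (1.01 ± 0.59, adjusted p = 0.383).

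Of 13 tested growth factor and cytokine genes 11 rose in PT and 11 in Total. By the interaction 2 were called higher, Tgfb2 and Csf1, and 1 lower, Il33 (3.7% and 1.2% of all genes tested). The list median was 0.58. Csf1, the macrophage growth factor gene, ranged over 8.19, 12.9 and 20.9 CPM in PT at day 5, against 0.333, 0.915 and 1.59 CPM in contralateral PT, and over 10.7, 15.6 and 23.9 CPM in Total at day 5, against 2.12, 3.47 and 4.57 CPM in contralateral Total. The fractions were apart in contralateral kidneys and overlapped at day 5. The interaction of Csf1 was 1.75 ± 0.35 (adjusted p = 0.00129), and 1.24 without the 8 libraries of lowest Lars2. Il34, the other ligand of the same receptor, was not called (0.86 ± 0.32, adjusted p = 0.108), and was called without male contralateral PT replicate 3 (1.05). Il33, an alarmin gene, ranged over 2.85, 4.08 and 8.29 CPM in PT at day 5, against 0.817, 1.31 and 2.54 CPM in contralateral PT, and over 40.1, 56.1 and 116 CPM in Total at day 5, against 4.83, 6.88 and 10.1 CPM in contralateral Total (interaction -1.54 ± 0.22, adjusted p = 1.43e-05). Among 26 profibrotic factor genes Tgfb2 (2.03 ± 0.30, adjusted p = 2.31e-05) and Edn1, the endothelin gene (2.03 ± 0.53, adjusted p = 0.0178), were called higher. Without the 8 libraries of lowest Lars2 the interaction of Edn1 was 1.02. Shh, the hedgehog ligand gene, had 0 counts in PT at day 5, against 75 in contralateral PT. The fall was at least 26.8-fold on a floor of 3 counts over the 7 PT libraries of day 5 together. The interaction of Shh was called lower (adjusted p = 0.0349) and lost the call without 1 of 8 libraries in turn (adjusted p 0.0506 to 0.0735).

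Antigen presentation, interferon and complement genes had a few positive calls, beside 3.7% called higher and 1.2% lower over all genes tested. Of 20 complement and acute phase genes 3 were called higher and 0 lower (median 0.36): C1s1, a complement protease gene (3.27 ± 0.45, adjusted p = 8.69e-06), Lbp, the lipopolysaccharide-binding protein gene (2.58 ± 0.38, adjusted p = 2.44e-05), and Cp, the ceruloplasmin gene. Cp ranged over 363, 470 and 524 CPM in PT at day 5, against 2.99, 4.13 and 10.2 CPM in contralateral PT, and over 203, 331 and 439 CPM in Total at day 5, against 12.9, 18.3 and 34.3 CPM in contralateral Total (interaction 2.47 ± 0.28, adjusted p = 3.37e-07). Of 29 interferon response genes 3 were called higher and 1 lower (median 0.30), Gbp2 (2.22 ± 0.50, adjusted p = 0.00542), Rsad2 and Ifit2 (1.29 ± 0.28, adjusted p = 0.00259) against Irf8 (-1.42 ± 0.36, adjusted p = 0.0124). Rsad2 had 1.36 ± 0.35 (adjusted p = 0.0131, and 0.0657 without female contralateral PT replicate 1). Without the 8 libraries of lowest Lars2 the interactions were 2.22 for Gbp2, 1.01 for Ifit2 and -1.36 for Irf8.

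The share called higher over all genes tested was 3.7%. Of 9 class II genes 2 were called higher, Cd74, the invariant chain gene (1.31 ± 0.34, adjusted p = 0.0132), and H2-Aa (1.31 ± 0.32, adjusted p = 0.00903). Of 14 class I and immunoproteasome genes 2 were called higher, Psmb8 (2.19 ± 0.54, adjusted p = 0.013) and Psmb10 (1.20 ± 0.28, adjusted p = 0.00679). These 4 genes each missed the threshold without female contralateral PT replicate 1, with interactions of 1.13, 1.09, 1.88 and 0.95 and adjusted p from 0.06 to 0.0672. Without the 8 libraries of lowest Lars2 the interactions were 1.41 for Cd74, 1.41 for H2-Aa and 2.21 for Psmb8, with 20 libraries in the fit. Cd74 ranged over 1240, 1970 and 3260 CPM in PT at day 5, against 51.5, 71.3 and 198 CPM in contralateral PT, and over 1890, 2370 and 3930 CPM in Total at day 5, against 192, 261 and 327 CPM in contralateral Total. The macrophage marker sums given above also rose in both fractions, while the macrophage list had a median interaction of -0.63. Their part in the interactions of these genes was not tested.

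Markers of other cells were mostly not called, against 3.7% called higher and 1.2% lower over all genes tested. This means that the change in their ratio of PT over Total did not pass both the test and the 2-fold limit. The fibroblast and macrophage markers themselves were far lower in PT than in Total, as given above. Of 20 fibroblast markers all 20 rose in both fractions, and the interaction called 1, the fibronectin gene Fn1 (1.11 ± 0.31, adjusted p = 0.0235), higher. Fn1 lost its call without 1 of 2 female libraries, contralateral Total replicate 3 (0.94) or contralateral PT replicate 1 (0.84), and with RLE size factors the list had 0 higher and 1 lower. Col1a1, a type I collagen gene, ranged over 5.28, 8.35 and 15.3 CPM in PT at day 5, against 0.577, 0.992 and 1.62 CPM in contralateral PT, and over 154, 188 and 292 CPM in Total at day 5, against 7.71, 13.9 and 20.8 CPM in contralateral Total. The fractions were apart in both states, and the interaction was -0.65 ± 0.36 (adjusted p = 0.35). Of 22 macrophage markers Cd14, a lipopolysaccharide co-receptor gene, was called higher (1.48 ± 0.26, adjusted p = 0.000278) and Csf1r, the receptor of Csf1 and Il34, lower (-1.54 ± 0.22, adjusted p = 1.49e-05), with a list median of -0.63. Cd14 had 60.3 to 128 CPM in PT at day 5, against 50.7 to 87.3 CPM in Total, while C1qa, a complement gene of macrophages, had 3.9 to 9.76 CPM in PT, against 41.4 to 175 CPM in Total (interaction -0.57 ± 0.43, adjusted p = 0.538).

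Of 16 lymphocyte markers Lck, a T cell kinase gene, was called higher (2.05 ± 0.48, adjusted p = 0.00608, and 1.93 without the 8 libraries of lowest Lars2). Its level at day 5 was 2.14 to 5.34 CPM in PT, against 6.27 to 13.4 CPM in Total. The 7 tested neutrophil, 16 endothelial and 6 erythrocyte genes gave 0 calls, and lists this small would hold few at the 4.91% called over all genes tested. Of 13 podocyte markers 4 were called higher (3.7% of all genes tested), Wt1, Nes, Thsd7a and Synpo. Wt1, a transcription factor gene of podocytes, ranged over 8.33, 11.7 and 16 CPM in PT at day 5, against 1.19, 2.39 and 4.37 CPM in contralateral PT, and over 7.28, 10.3 and 11.5 CPM in Total at day 5, against 4.33, 5.82 and 12.7 CPM in contralateral Total (interaction 1.69 ± 0.33, adjusted p = 0.000899). The sum of the podocyte list was 317 to 391 CPM in PT at day 5, against 164 to 227 CPM in contralateral PT, and 285 to 503 CPM in Total at day 5, against 268 to 448 CPM in contralateral Total. The median interaction of the podocyte list was 0.70, and 0.65 without the 8 libraries of lowest Lars2.

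Segments beyond the proximal tubule gave both directions, beside 3.7% called higher and 1.2% lower over all genes tested. Of 18 loop and distal tubule markers 3 were called higher, Trpm6, Wnk1 and Klk1. Wnk1, a kinase gene of salt transport, ranged over 60.9, 76.9 and 95.6 CPM in PT at day 5, against 80.9, 90.7 and 114 CPM in contralateral PT, and over 134, 188 and 293 CPM in Total at day 5, against 528, 765 and 1050 CPM in contralateral Total. It fell in Total and was not called in PT (interaction 1.55 ± 0.22, adjusted p = 1.92e-05). Trpm6, a magnesium channel gene, rose in PT and was not called in Total (2.95 ± 0.37, adjusted p = 2.33e-06). Klk1, the tissue kallikrein gene, fell in both fractions (1.12 ± 0.31, adjusted p = 0.0207) and lost its call without 1 of 2 libraries, male day 5 PT replicate 1 or female contralateral PT replicate 1 (0.98 each). Of 14 collecting duct markers Aqp3, a water channel gene, was called lower (-1.49 ± 0.32, adjusted p = 0.00303, and -0.81 without the 8 libraries of lowest Lars2). It ranged over 0.961, 3.87 and 10.4 CPM in PT at day 5, against 33.3, 55.3 and 77.2 CPM in contralateral PT, and over 10.4, 14.7 and 20.7 CPM in Total at day 5, against 54.9, 66.3 and 108 CPM in contralateral Total. Atp6v0d2, a proton pump subunit gene, lost its call (1.11 ± 0.33, adjusted p = 0.0376) without 1 of 13 libraries in turn (0.91 to 1.11).

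**Figure D5:**
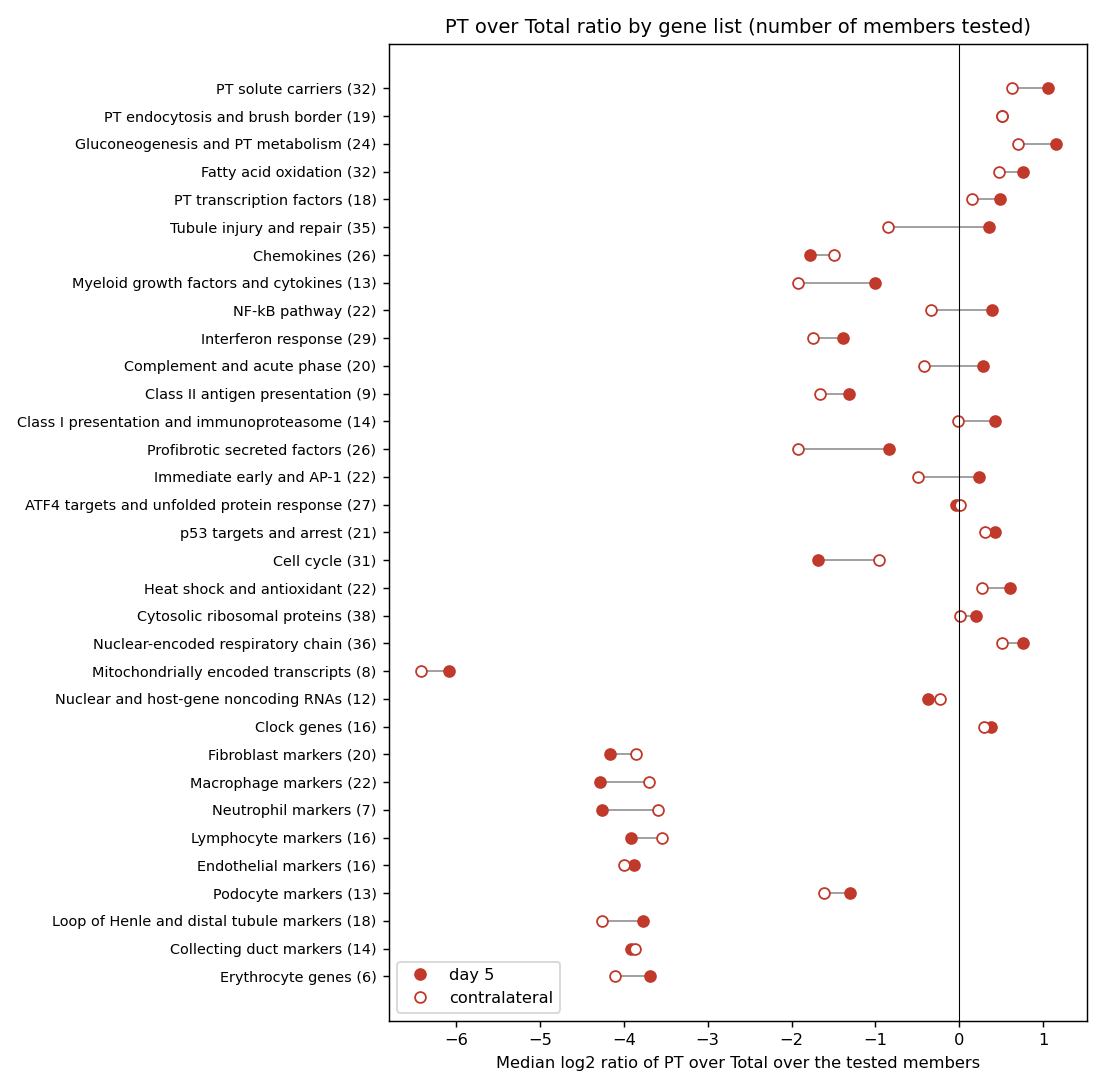
Median log2 ratio of PT over Total of the tested members of each gene list at day 5 (filled) and in contralateral kidneys (open), with the number tested in brackets and a line between the states. Lists of the proximal tubule lie right of 0 in both states, markers of other cells other than podocytes lie near -4, and the injury list crosses from -0.85 in contralateral kidneys to 0.35 at day 5.

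Ribosomal protein genes (38 tested), mitochondrially encoded transcripts (8 tested), clock genes (16 tested) and nuclear or host-gene noncoding RNAs (12 tested) gave 0 calls by the interaction. With 4.91% of all genes tested called, lists of this size would hold few calls, so the 0 says little about them. The mitochondrially encoded transcripts had a median log2 ratio of PT over Total of -6.09 at day 5 and -6.42 in contralateral kidneys. By GENCODE M21 gene types matched on symbol, 1065 long noncoding RNAs were tested, and 22 (2.07%) were called higher and 10 (0.939%) lower. Mirt1, annotated as a long noncoding RNA, had an interaction of 3.38 ± 0.84 (adjusted p = 0.0111) at medians of 1.4 CPM in PT at day 5, against 0 CPM in contralateral PT, and 1.61 CPM in Total at day 5, against 0.646 CPM in contralateral Total. Gm14005 had 122 counts in PT at day 5, against 1 in contralateral PT, and 1700110K17Rik had 117 counts, against 2, and 1700110K17Rik lost its call without 1 of 16 libraries in turn. Gm11513, which overlaps Pdk2 on the opposite strand, had medians of 0.0476 CPM in PT at day 5, against 4.44 CPM in contralateral PT, and lost its call without 1 of 15 libraries in turn. A330048O09Rik (-2.61 ± 0.73, adjusted p = 0.0245) lost its call without male contralateral PT replicate 1 and Gm21781 (-2.37 ± 0.69, adjusted p = 0.0338) without 1 of 9 libraries. Mirt1, Gm14005 and 1700110K17Rik also overlap other genes on the opposite strand. Without the 8 libraries of lowest Lars2 the interactions were 3.35 for Gm14005, 3.65 for Mirt1 and 2.52 for 1700110K17Rik. The strand setting of the counting is not given in the sources used here, so their reads and those of the overlapping genes cannot be told apart.

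The direction was shared by the sexes. Of the 614 genes 611 had a positive interaction in males and in females, and 480 were at least 2-fold in each, and of the 199 genes all 199 were negative in both and 158 at least 2-fold in each. Both sexes entered the call, so these counts are a description. Read separately in the same model, 329 genes were called higher and 89 lower in females, and 292 higher and 100 lower in males. The difference itself, female minus male, was called for 1 gene (0.00603% of those tested), while 469 had an unadjusted p under 0.05.

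That gene was Crispld2, which encodes a secreted cysteine-rich protein, with a difference of 3.60 ± 0.57 (adjusted p = 0.014). In females it had 7.33, 6.03 and 10.4 CPM in PT at day 5, against 0.953, 0.635 and 0.949 CPM in contralateral PT, and 28.1, 43.8 and 44.8 CPM in Total at day 5, against 14.8, 13 and 12 CPM in contralateral Total. In males it had 3.52, 7.44, 5.02 and 5.65 CPM in PT at day 5, against 21.7, 19.1, 23.8 and 9.35 CPM in contralateral PT, and 24, 23, 21.3 and 24 CPM in Total at day 5, against 15.1, 26.6, 23.6 and 17.3 CPM in contralateral Total. In PT the states were apart in both sexes and in opposite directions. The interaction was 1.67 in females and -1.93 in males. The count of such genes was 2 without male contralateral PT replicate 2, female day 5 Total replicate 3 or female day 5 PT replicate 3, and 0 without female contralateral PT replicate 2.

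At day 10 the interaction differed from that at day 5 for 4 genes, all higher (0.0234% of 17110 tested in all 42 libraries), while 1071 had an unadjusted p under 0.05. The contralateral libraries cancel in this contrast. Of the 614 and 199 genes called at day 5, 0 had a called difference between the days, and their median interactions in this model were 1.97 at day 10 and 1.85 at day 5, and -1.45 at day 10 and -1.79 at day 5, from interactions that share the contralateral libraries. Gsn, the gelsolin gene, ranged over 11.7, 22.3 and 84.6 CPM in PT at day 10, against 7.06, 10.1 and 12.8 CPM in PT at day 5, and over 63.5, 79 and 108 CPM in Total at day 10, against 65.7, 84.3 and 123 CPM in Total at day 5 (difference 1.74 ± 0.34, adjusted p = 0.0408). Cldn7, a tight junction gene, ranged over 16.1, 22.3 and 44.1 CPM in PT at day 10, against 6.94, 8.11 and 9.83 CPM in PT at day 5, and over 37.9, 59 and 101 CPM in Total at day 10, against 37.4, 51.9 and 88.8 CPM in Total at day 5 (1.53 ± 0.24, adjusted p = 0.00291). In both genes the highest PT libraries were those of day 10, and Total overlapped between the days. In PT the days were apart for Cldn7 and overlapped for Gsn. Hk1, a hexokinase gene, was also called (1.30 ± 0.24, adjusted p = 0.0257). The count was 14 without female day 10 PT replicate 1. It was 2 without any 1 of 10 libraries, namely male replicate 1 or 2 of day 5 Total, male replicate 2 of day 10 Total, male replicate 1 of day 5 PT, male replicate 3 of day 10 PT, female replicate 1, 2 or 3 of day 5 Total and female replicate 1 or 3 of day 10 Total.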

How the data were processed

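Raw counts per gene and RPKM values were deposited by the authors for all 42 libraries. Per the submitters' processing notes, STAR 2.0.4b, Subread and featureCounts 1.4.5 were used, and the genome build and strand setting are not given in the sources used here. The counts deposited by the authors are whole numbers without normalization, and the RPKM values deposited by the authors divide them by gene length and depth. Groups came from the labels. Counts were fitted with edgeR 4.0.16 in R 4.3.3 (filterByExpr by group, TMM factors, robust quasi-likelihood, 1 mean for each of 8 sex, state and fraction groups), with Benjamini-Hochberg adjustment over all genes tested. The day 10 contrast used all 42 libraries. A call needed an adjusted p under 0.05 and a 2-fold difference. Standard errors were taken from the size of the effect and its F statistic and are approximate, and CPM use TMM-scaled library sizes. The filter kept 16574 of 40701 symbols, of which 12632 were 0 in every library, and the fit was tested on simulated data. Total counts of 10195584 to 28083403 per library limit the precision of genes below about 1 CPM.

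Genes were named by a rule: fixed markers, the 12 largest positive and 12 largest negative interactions with a group mean of at least 5 CPM and at least 2-fold in each sex, the called genes of each list, the largest long noncoding RNAs with a group mean of at least 1 CPM, and any gene called for sex or day. Synpo, Cdh6 and the other list members given without values were named as members called. The genes, lists and tests were chosen with earlier results of these data known, so they are not independent of them. Gene types and overlaps came from GENCODE M21 by symbol (39799 symbols matched), without coordinates. Alternatives were other size factors and filters, DESeq2 1.42.0, limma 3.58.1 with voom and on log2(RPKM + 1), replicate blocks, a Lars2 covariate, single sexes, other thresholds and leaving out libraries. Replicate numbers were not taken as pairs. Some genes that the rule names are not reported here. No 2 libraries of a group were alike enough to be 1 library (highest correlation of log2 CPM 0.989).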

Additional observations from a re-analysis of the deposited data

Results flagged for a closer look

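In groups of 4 male libraries, 1 library stood far from the other 3 in 7 of 159 groups tested over 40 genes, and chance gives about 1 in 20. Krt20 was 3.8 CPM in male contralateral PT replicate 2, where the others lay between 1.22 and 1.59 CPM, and 2.76 CPM in male contralateral Total replicate 2, where the others lay between 0.861 and 1.12 CPM. Lrp2 was 132 CPM in male day 5 PT replicate 3, where the others lay between 87.8 and 88.2 CPM. Cdkn1a was 97.5 CPM in male contralateral PT replicate 1, where the others lay between 77.8 and 81 CPM. Rasd2 was 3.89 CPM in male day 5 Total replicate 3, where the others lay between 2.29 and 2.55 CPM. Plbd1 was 9.52 CPM in male contralateral Total replicate 3, where the others lay between 6.89 and 7.19 CPM. Pstpip1 was 2.7 CPM in male contralateral Total replicate 1, where the others lay between 1.29 and 1.47 CPM.

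The interaction of Crispld2 differed between the sexes by 3.60 on the log2 scale, female minus male, by the test of that difference. The interaction differed between the days, day 10 minus day 5, by 1.74 for Gsn, 1.53 for Cldn7 and 1.30 for Hk1, by the test of that difference.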

How the results depend on the processing

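Over 4332 values of single genes under alternatives, 4008 kept their direction and side of the threshold, 295 lost the call, 6 gained it and 23 changed sign. The day 5 counts of 614 higher and 199 lower moved by over 1.5 times to 312 lower with DESeq2, 373 lower with limma-voom, 145 higher and 621 lower with limma on log2(RPKM + 1), 205 higher in male libraries, 249 higher and 57 lower in female libraries, 126 lower at an adjusted p under 0.01, 925 higher with no minimum fold, and 366 higher and 115 lower without the 8 libraries of lowest Lars2, an alternative chosen after seeing the data. With other size factors the counts were 488 and 240 (RLE), 501 and 232 (upper quartile) and 559 and 189 (library size only). Leaving out 1 library gave 476 to 665 higher and 172 to 276 lower; without female contralateral PT replicate 1 they were 476 and 276, 63.3% of calls were higher and 15 of 86 named called genes lost the call. The sex difference called 2 genes with library size only, with DESeq2 or with all 42 libraries, 0 at an adjusted p under 0.01, and 0 to 2 when 1 library was left out. The day 10 difference called 2 genes at an adjusted p under 0.01, and 2 to 14 when 1 library was left out.

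Signs turned for Cdkn1a to -0.016 (RLE), -0.00637 (upper quartile), -0.019 (DESeq2), -0.21 (female libraries), -0.15, -0.10 and -0.05 (without female contralateral Total replicate 1, contralateral PT replicate 3 or day 5 PT replicate 3). On log2(RPKM + 1) they turned for Pik3r5 (-0.16), Ccl9 (-1.13), Tgfb2 (-0.31), Cd40 (-0.12), C1s1 (-0.30), Lbp (-0.27), Edn1 (-0.22), Slc7a5 (-0.52), Fn1 (-1.36), Lck (-0.82), Gm14005 (-0.33) and Cldn7 (-0.15). Crispld2 was 1.67 in female libraries and 0.039 without the 8 libraries of lowest Lars2, Larp1b was -0.26 without them, and Slc5a2 was -0.064 without female contralateral PT replicate 1 (range when 1 library was left out -0.064 to 0.28; for Cdkn1a -0.15 to 0.28). The cause was not tested.

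Same-numbered libraries deviated together in contralateral PT and Total in 7 of 7 pairs (correlation 0.297 to 0.456), but in 5 of 7 at day 5. Between states they did so in 3 of 7 (PT) and 1 of 7 (Total). These counts rest on a cutoff of the correlation, and the lowest pair counted had 0.101. By another measure, the library of the same number was the best match in 7, 5, 2 and 4 of 7 pairs, in that order. With a replicate block of sex and number the counts were 627 and 197, and with a block of sex, state and number 733 and 225. Under these blocks Shh (adjusted p = 0.0697 and 0.0639) and 1700110K17Rik (0.0735 and 0.0738) lost the call, as did Gm11513 (0.0558) under the first, and no other named gene did. Depth limits genes near 0 in contralateral PT.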
